A study of Mus musculus with 12 samples.

Results

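Cells of the mouse melanoma line 4599 recovered from lung metastases, which the labels call Met, were compared with cells of the same line recovered from orthotopic melanomas and labelled TB. The comparison took 6 of the 12 RNA libraries of the series, 3 Met and 3 TB. Genes entered it where their mean over the 12 libraries was at least 0.5 FPKM (fragments scaled for gene length and sequencing depth), which kept 12661 of the 56748 genes listed. The other 6 libraries, 3 from cells labelled DIF and 3 from cells labelled PIF, came from orthotopic tumours as well. They entered the estimate of the spread, and Met was also tested against each of them directly. The abbreviations TB, PIF and DIF are not spelled out in the sources used here, and no genotype, mouse strain or age is given. All cells were put on fibrillar bovine collagen at 1.7 mg/ml, with 24 h in 10% serum and then 24 h in 1% serum, before RNA was taken, so each group had left its tissue and met the same substrate. Only 1 cell line was used. No label says that the 3 libraries within a group had different animals as their source. The p-values therefore reflect library-to-library spread alone, part of which may be technical.

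Melanoma cells move between a differentiated state, driven by the transcription factor MITF and marked by pigment enzymes, and a dedifferentiated state with mesenchymal genes, matrix production and high levels of receptors such as AXL and NGFR. Colonies in the lung arise from cells that left the primary tumour, and matricellular proteins such as osteopontin, periostin and thrombospondins are among the gene products studied there. Lysosomal genes are partly controlled by the MiT/TFE factors, to which MITF belongs, and amino acid synthesis genes by the stress factor ATF4.

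The reads assigned to genes, rebuilt from FPKM and gene length, came to 17.9 to 18.3 M per Met library and 17.5 to 18.0 M per TB library. Across genes, log2(FPKM + 1) correlated at 0.99 to 0.994 within Met, at 0.992 to 0.993 within TB and at 0.979 to 0.983 between them, where genes are not independent replicates. Sox10, a neural crest factor, stood at 235, 207 and 209 FPKM in Met, against 261, 224 and 206 FPKM in TB. The pigment enzyme genes Tyr, Tyrp1 and Dct and the melanosome gene Mlana did not exceed 0.213 FPKM in any of the 6 libraries, so the cells had the transcript of Sox10 but hardly any of these pigment cell genes. Summed FPKM of leukocyte markers was 0.278 to 0.633 in Met and 0.979 to 1.51 in TB, with 10 of 22 at 0 in all 6 libraries. Sums of 12 fibroblast markers were 7.81 to 9.68 in Met and 10.7 to 11.4 in TB, with 3 at 0. Sums of 12 endothelial markers were 4.19 to 4.74 in Met and 3.19 to 4.53 in TB, also with 3 at 0. Lung epithelium markers summed to 0.698 to 1.75 FPKM in Met and 0.921 to 1.32 FPKM in TB, with 6 of 14 at 0. For 10 pericyte and smooth muscle markers the sums were 3.76 to 5.31 FPKM in Met and 1.06 to 1.29 FPKM in TB, with 1 at 0. Most of the gap was Cnn1, but the other markers together were also higher in Met on average. Sums of 12 keratinocyte markers (3.69 to 4.15 in Met, 3.88 to 4.35 in TB) and of 13 skeletal muscle and adipocyte markers (1.16 to 1.44 in Met, 1.51 to 2.22 in TB) were low too, with 6 at 0 in each. The part of other cells in the results was not tested, and in bulk RNA fewer cells of a type and less RNA per cell cannot be told apart.

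Met and TB cells differed in 1259 genes, 9.94% of those tested, at an adjusted p under 0.05 (limma, Benjamini-Hochberg over all 12661 genes). Of these, 673 (5.32%) rose in Met and 586 (4.63%) fell. The median size of a called change was 0.476 on the log2(FPKM + 1) scale, and 152 genes (1.2%) passed a log2 change of 1, 88 of them higher (0.695%) and 64 lower (0.505%). All fold changes below are log2 of Met over TB on that scale, which understates changes of low genes. They are followed by their SE and the adjusted p, and averages are mean FPKM ± SD over 3 libraries. In each of the 1259 genes the 3 Met values lay all above or all below the 3 TB values, but so did many more genes, 2143 (16.9%) above and 2047 (16.2%) below. Leaving out Met replicate 3 gave 810 calls. Leaving out TB replicate 2 gave 800, and TB replicate 3 gave 793. Protein-coding genes made up 1185 of the calls. Among 1239 distinct genes of 48 programme lists 300 were called (24.2%). The lists were chosen with earlier results of these data known, so that share is no evidence against the 9.94%.

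**Figure D1:**
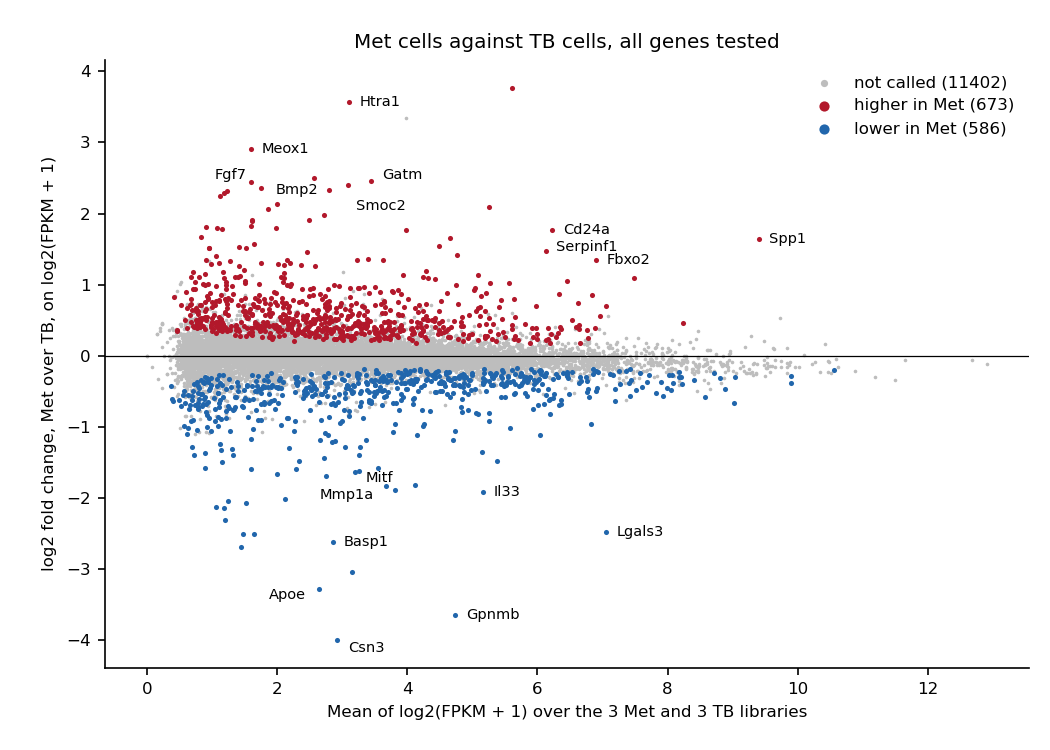
Log2 fold change of Met over TB on the log2(FPKM + 1) scale (vertical axis) against mean log2(FPKM + 1) over the 6 libraries (horizontal axis) for 12661 genes, with called genes coloured by direction. Most of the 1259 calls lie within a change of 1, and the labelled genes farthest out are Htra1 and Meox1 above and Csn3, Gpnmb and Apoe below. The highest point, without a label, is Gm37416.

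**Figure D2:**
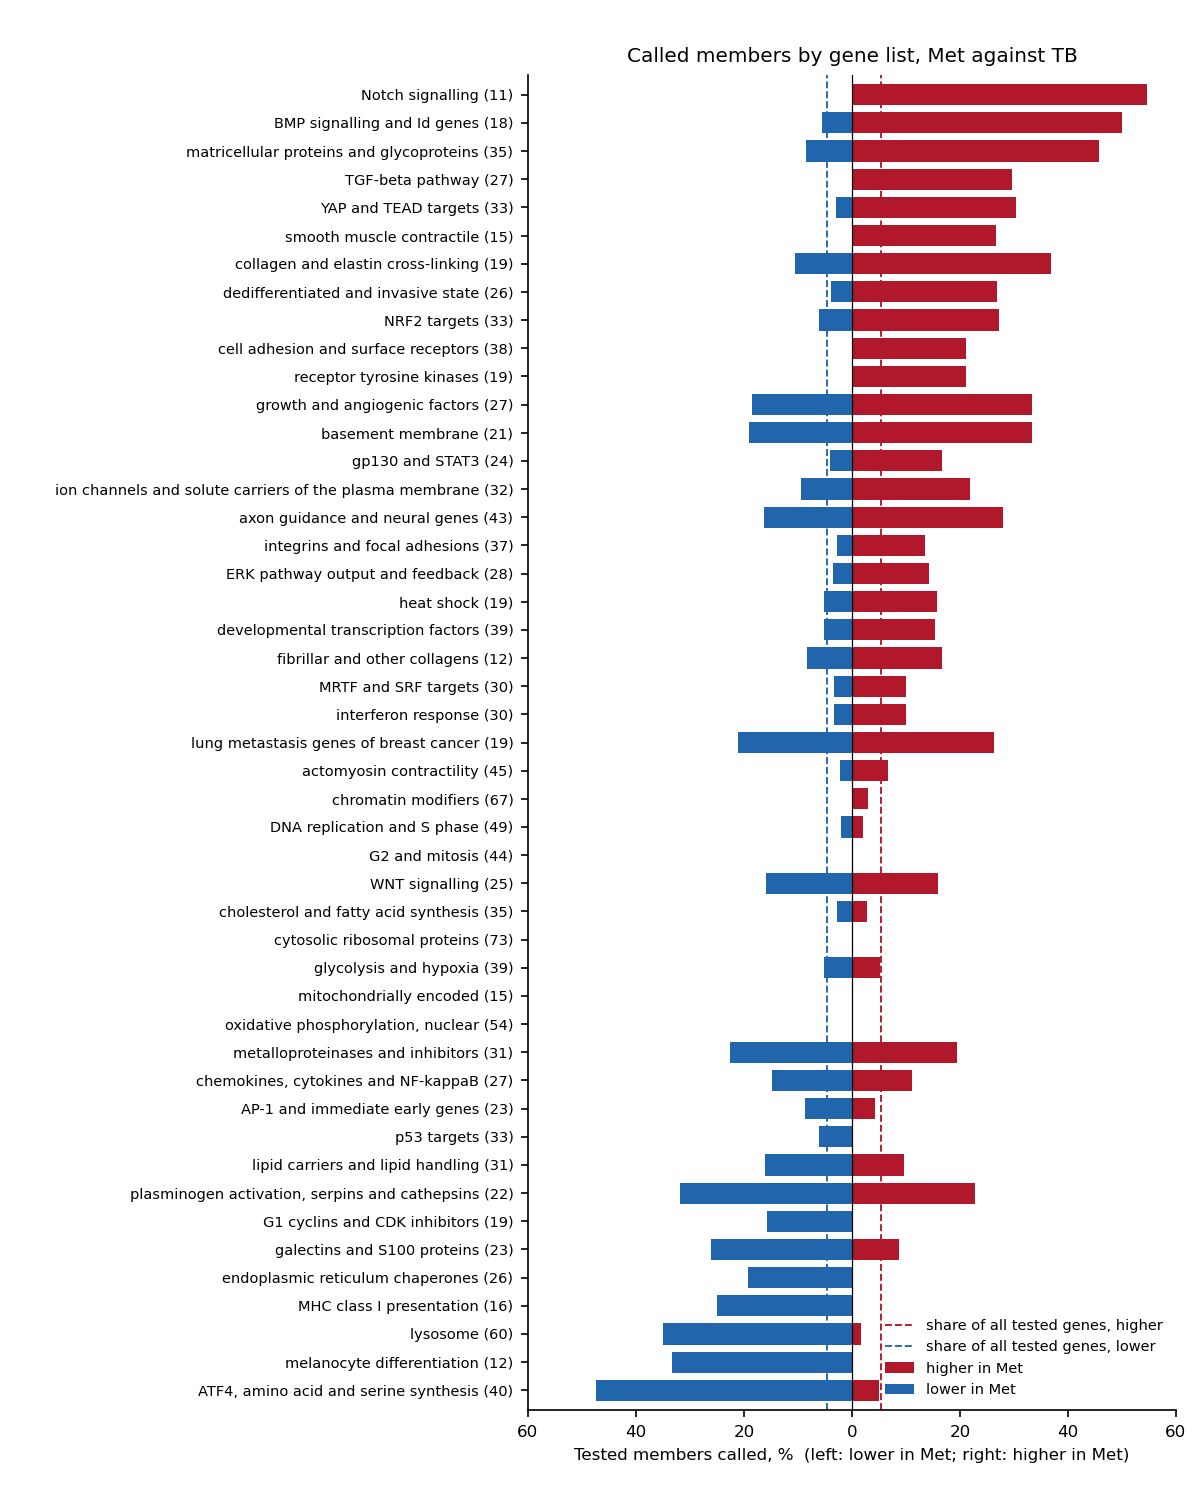
Share of tested members called higher (bars to the right) and lower (bars to the left) in Met against TB, in percent, for each programme list with at least 10 tested members, whose number stands in brackets. Dashed lines mark 5.32% higher and 4.63% lower over all tested genes. Notch, BMP and matricellular lists reach farthest to the right, the ATF4 and lysosome lists farthest to the left, and the lists of mitosis, oxidative phosphorylation, ribosomal proteins and mitochondrially encoded genes have no bar.

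Matrix genes were among the largest rises, while the fibroblast marker sums given above were lower in Met. Col3a1 made up most of those sums. Another fibroblast marker, Col1a1, was under the filter and higher in Met, at 1.28, 0.641 and 0.673 FPKM in Met, against 0.147, 0.0616 and 0.0856 FPKM in TB. Of 35 matricellular proteins and glycoproteins tested, 16 rose and 3 fell, with a median log2 change of 0.34, against −0.0031 over all tested genes. Htra1, a secreted serine protease that cleaves matrix proteins and TGF-beta family factors (chromosome 7, 130537841 to 130587390, plus strand as the table lists it), stood at 25.2, 31.4 and 29.6 FPKM in Met, against 1.64, 1.12 and 1.81 FPKM in TB. The Met libraries were close to each other and 18.9-fold above TB in mean FPKM (log2 fold change 3.56 ± 0.16 (SE), adjusted p = 6.6e-08). Spp1, which encodes the integrin ligand osteopontin (chromosome 5, 104582984 to 104588916, plus strand), was among the most abundant transcripts that moved, at 1011, 1353 and 1246 FPKM in Met, against 351, 382 and 411 FPKM in TB (1.65 ± 0.14, adjusted p = 2.1e-05). The groups did not overlap in either gene.

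Thbs1, thrombospondin 1, an activator of latent TGF-beta, was listed at 4.45, 3.38 and 3.78 FPKM in Met, against 0.636, 0.666 and 0.805 FPKM in TB (1.51 ± 0.15, adjusted p = 5.5e-05). Sparcl1, a relative of the collagen-binding protein SPARC, stood at 13.5, 12 and 10.7 FPKM in Met, against 2.28, 2.36 and 2.29 FPKM in TB (1.98 ± 0.14, adjusted p = 3.4e-06). Both were low in every TB library and severalfold higher in every Met library. Tgfbi, an integrin-binding protein induced by TGF-beta, averaged 30.4 ± 1.35 FPKM in Met, against 13.8 ± 1.01 in TB (1.09 ± 0.10, adjusted p = 3.9e-05). Thbs2, Ccn4, Emilin1, Edil3 and the latent TGF-beta binding protein gene Ltbp1 rose as well, with log2 changes of 0.74 ± 0.12, 0.43 ± 0.08, 0.71 ± 0.15, 0.66 ± 0.09 and 0.90 ± 0.15. Against that direction, Ccn3, a CCN family member, averaged 12.4 ± 1.79 FPKM in Met, against 25.6 ± 0.292 in TB (−0.99 ± 0.08, adjusted p = 1.3e-05). Mfge8, a milk fat globule glycoprotein that tags dying cells, averaged 60.9 ± 0.771 FPKM in Met, against 92.2 ± 0.228 in TB (−0.59 ± 0.06, adjusted p = 9.8e-05). Fibronectin, Fn1, was at 332, 221 and 243 FPKM in Met, against 132, 117 and 119 FPKM in TB. Its call (adjusted p = 0.013) was lost without TB replicate 2, TB replicate 3 or Met replicate 1 (largest adjusted p = 0.053). The rises numbered 11 to 14 when 1 library was left out.

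Basement membrane genes split. Of 21 tested, 7 rose and 4 fell, but the rises numbered 4 without TB replicate 1 and 3 without TB replicate 2, TB replicate 3, Met replicate 1 or Met replicate 3, and the falls 2 without TB replicate 2 or Met replicate 3. Among the steadier members, Smoc2, a calcium-binding matricellular protein of basement membranes, was at 13.2, 21 and 22.5 FPKM in Met, against 2.94, 2.81 and 2.37 FPKM in TB (2.39 ± 0.25, adjusted p = 7.4e-05). The collagen IV gene Col4a1 averaged 3.29 ± 0.749 FPKM in Met, against 0.845 ± 0.126 in TB (1.21 ± 0.17, adjusted p = 0.00095). Col18a1, the precursor of endostatin, averaged 54.3 ± 7.25 FPKM in Met, against 26.1 ± 1.74 in TB (1.02 ± 0.15, adjusted p = 0.00086). Met replicate 1 was the lowest of the Met libraries for Smoc2, yet more than 4-fold above every TB library. Fbln1, fibulin 1, averaged 0.0584 ± 0.036 FPKM in Met, against 0.62 ± 0.0839 in TB (−0.61 ± 0.09, adjusted p = 0.00074). Tinagl1, another basement membrane component, averaged 223 ± 12.2 FPKM in Met, against 313 ± 9.38 in TB (−0.49 ± 0.10, adjusted p = 0.0072). Both were lower in Met. Ogn, osteoglycin, a small leucine-rich proteoglycan, was nearly absent from TB, with 3.38, 5.15 and 4.36 FPKM in Met, against 0.0664, 0.0676 and 0.0219 FPKM in TB (2.32 ± 0.12, adjusted p = 2.0e-07).

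Of 19 enzymes and helpers that mature and cross-link collagen and elastin, 7 rose and 2 fell, while the signs of all members were split 10 to 9 and the median was 0.01. Loxl1, a lysyl oxidase needed for elastic fibres, stood at 7.85, 8.46 and 8.39 FPKM in Met, against 3.41, 2.72 and 2.49 FPKM in TB (1.26 ± 0.09, adjusted p = 6.0e-06). Loxl3, another lysyl oxidase, averaged 17.6 ± 1.12 FPKM in Met, against 8.94 ± 0.936 in TB (0.90 ± 0.12, adjusted p = 0.00043). Plod2, the lysyl hydroxylase of collagen telopeptides, averaged 21.6 ± 1.05 FPKM in Met, against 14.8 ± 0.455 in TB (0.52 ± 0.07, adjusted p = 0.00054). P4ha3, a prolyl hydroxylase subunit, and the procollagen processing genes Adamts2 and Pcolce rose by 0.73 ± 0.14, 0.71 ± 0.12 and 0.59 ± 0.09. Loxl4 went the other way, at 0.935 ± 0.081 FPKM in Met, against 1.58 ± 0.224 in TB (−0.41 ± 0.08, adjusted p = 0.0083). Of 12 fibrillar and other collagens themselves, 2 rose and 1, Col3a1, fell, a fall that was lost with any 1 library left out (largest adjusted p = 0.14). Col10a1, a network collagen of growth cartilage, averaged 1.4 ± 0.0749 FPKM in Met, against 0.435 ± 0.185 in TB (0.75 ± 0.11, adjusted p = 0.0012). The other rise, Col12a1, was lost with any 1 library left out (largest adjusted p = 0.15).

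Proteases moved in both directions. Of 31 metalloproteinases and inhibitors, 6 rose and 7 fell, the falls numbering 4 without TB replicate 3. The interstitial collagenase Mmp1a was lower, at 5.08, 6.4 and 5.91 FPKM in Met, against 21.5, 22.8 and 25.5 FPKM in TB (−1.84 ± 0.10, adjusted p = 2.3e-07). Its neighbour and near copy Mmp1b, which may share reads with it, averaged 0.163 ± 0.143 FPKM in Met, against 1.21 ± 0.297 in TB (−0.92 ± 0.13, adjusted p = 0.00074). The gelatinase Mmp2 averaged 50.1 ± 6.49 FPKM in Met, against 81.1 ± 4.25 in TB (−0.69 ± 0.15, adjusted p = 0.01). The aggrecanase Adamts5 averaged 3.31 ± 0.502 FPKM in Met, against 5.46 ± 0.532 in TB (−0.59 ± 0.11, adjusted p = 0.006). Mmp14, the membrane-bound activator of MMP2, rose, at 59.8 ± 0.609 FPKM in Met, against 40.6 ± 1.27 in TB (0.55 ± 0.12, adjusted p = 0.011). So did the inhibitor Timp3, at 23.7 ± 1.43 FPKM in Met, against 16.5 ± 1.23 in TB (0.50 ± 0.07, adjusted p = 0.00098). The secreted Adamts9 and Adamts4 also rose, by 0.72 ± 0.11 and 0.62 ± 0.14, and the membrane-bound Adam23 fell (−0.58 ± 0.14), so neither class moved 1 way. The calls of Adamts4 and Adam23 were lost in 3 and 5 of the 6 fits with 1 library left out. Among plasminogen activation genes, serpins and cathepsins, 5 of 22 rose and 7 fell. The falls were Cst6, Ctsl, Ctsb, Cst3, Tfpi, Ctsz and Ctsd. Of these, Ctsl, Ctsb, Ctsz and Ctsd are counted again among the falls of the lysosome list below. Serpinf1, which encodes the antiangiogenic factor PEDF, stood at 126, 112 and 109.7 FPKM in Met, against 40.8, 39.2 and 43 FPKM in TB (1.48 ± 0.09, adjusted p = 7.2e-07). The thrombin receptor gene F2r averaged 28.6 ± 1.25 FPKM in Met, against 11.9 ± 0.815 in TB (1.20 ± 0.08, adjusted p = 1.5e-06).

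**Figure D3:**
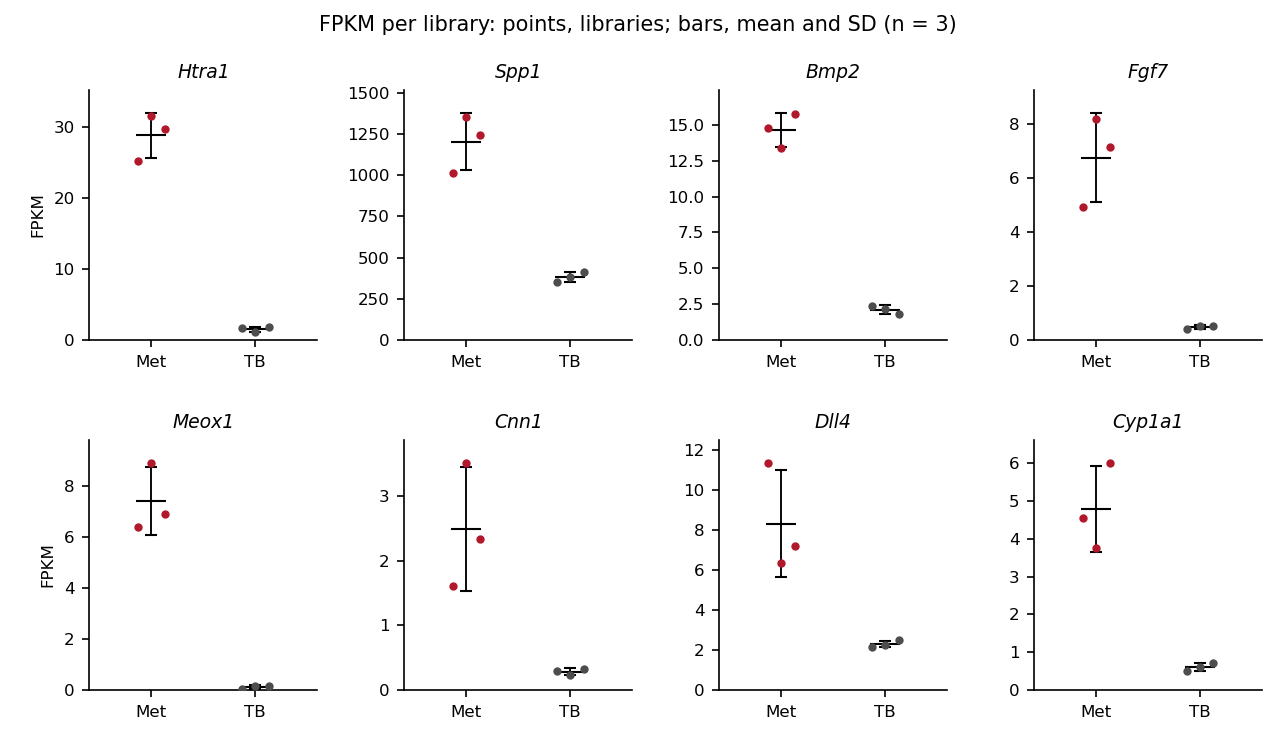
FPKM in each library (points) for 8 genes that rose in Met, with Met on the left and TB on the right of each panel and the mean ± SD of 3 libraries. In all 8 panels the 3 Met values lie above the 3 TB values, from Htra1 (25.2 FPKM or more in Met, 1.81 or less in TB) to Cyp1a1.

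BMP pathway genes leaned upward. Of 18 tested members, 9 rose and 1 fell, with a median log2 change of 0.51. Bmp2, the ligand (chromosome 2, 133394079 to 133404805, plus strand), stood at 14.8, 13.4 and 15.8 FPKM in Met, against 2.37, 2.19 and 1.82 FPKM in TB. All Met libraries were more than 5-fold above the highest TB library (log2 fold change 2.33 ± 0.10 (SE), adjusted p = 5.9e-08). Of the targets, Id3, an inhibitor of basic helix-loop-helix factors, was at 157, 145 and 156 FPKM in Met, against 80.3, 81.9 and 89.5 FPKM in TB (0.86 ± 0.08, adjusted p = 4.1e-05). Atoh8, a BMP-responsive helix-loop-helix factor, was at 12.8, 14 and 15.3 FPKM in Met, against 5.03, 4.68 and 4.88 FPKM in TB (1.35 ± 0.10, adjusted p = 6.5e-06). Id4, another inhibitor of this class, averaged 18.7 ± 1.17 FPKM in Met, against 13 ± 0.363 in TB (0.49 ± 0.08, adjusted p = 0.0016). The feedback inhibitor Smad6 averaged 3.25 ± 0.902 FPKM in Met, against 1.38 ± 0.184 in TB (0.82 ± 0.16, adjusted p = 0.0078). The extracellular regulator Bmper averaged 1.32 ± 0.167 FPKM in Met, against 0.208 ± 0.0847 in TB (0.94 ± 0.10, adjusted p = 9.2e-05). Grem1, a secreted antagonist that binds BMP2, fell, at 22.1, 30.1 and 29.1 FPKM in Met, against 52.2, 50.3 and 52.5 FPKM in TB (−0.92 ± 0.13, adjusted p = 0.00065). Ligand, intracellular targets and feedback inhibitor were therefore higher and 1 antagonist lower in the Met libraries. The rises numbered 6 without Met replicate 3 and 6 to 9 over all 6 left-out libraries. Bmpr1a, Id2 and Smad7 were among the calls lost, Smad7 without TB replicate 2, TB replicate 3 or Met replicate 3 (largest adjusted p = 0.082).

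Of 27 TGF-beta pathway genes, 8 rose and 0 fell. The ligand gene Tgfb3 averaged 19.3 ± 2.21 FPKM in Met, against 10.1 ± 0.498 in TB (0.87 ± 0.10, adjusted p = 0.0002). Of the type I receptor genes, Acvr1 averaged 19.4 ± 0.893 FPKM in Met, against 14.4 ± 0.654 in TB (0.40 ± 0.06, adjusted p = 0.0011), and Acvr1b 3.24 ± 0.0324 FPKM in Met, against 2.19 ± 0.0593 in TB (0.41 ± 0.08, adjusted p = 0.0084). The decoy receptor gene Bambi averaged 12 ± 0.564 FPKM in Met, against 7.4 ± 0.0721 in TB (0.63 ± 0.11, adjusted p = 0.0037). The target Tgfbi is given above. Leaving out 1 library at a time gave 6 to 9 rises.

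Notch pathway genes also leaned upward: 6 of 11 rose and 0 fell, with a median of 0.72, and 4 rose without TB replicate 2. Dll4, a Notch ligand of sprouting endothelium, was at 11.4, 6.36 and 7.22 FPKM in Met, against 2.17, 2.25 and 2.48 FPKM in TB (1.46 ± 0.22, adjusted p = 0.001). Dlk1, a non-canonical ligand expressed in fetal and progenitor cells, was at 3.77, 4.8 and 6.43 FPKM in Met, against 0.733, 0.562 and 0.467 FPKM in TB (1.90 ± 0.16, adjusted p = 1.4e-05). For both ligands the lowest Met library exceeded the highest TB library more than 2-fold. The ligand gene Jag1 averaged 10.4 ± 2.01 FPKM in Met, against 5.89 ± 0.583 in TB (0.72 ± 0.15, adjusted p = 0.011). Lfng, a glycosyltransferase that modifies Notch receptors, averaged 3.1 ± 0.511 FPKM in Met, against 0.975 ± 0.207 in TB (1.05 ± 0.14, adjusted p = 0.00042). The receptor gene Notch1 and the target gene Hey1 made up the other calls. Notch1 was lost without TB replicate 1, TB replicate 2, TB replicate 3, Met replicate 1 or Met replicate 3 (largest adjusted p = 0.092). Hey1 was lost without TB replicate 2 (largest adjusted p = 0.051).

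Of 27 growth and angiogenic factors, 9 rose and 5 fell. Fgf7, keratinocyte growth factor, which acts on epithelial cells, was at 4.92, 8.17 and 7.14 FPKM in Met, against 0.402, 0.534 and 0.519 FPKM in TB (2.36 ± 0.15, adjusted p = 1.5e-06). Angpt2, a ligand of the endothelial receptor TIE2, was at 6.36, 6.18 and 6.58 FPKM in Met, against 1.08, 1.21 and 1.08 FPKM in TB (1.80 ± 0.08, adjusted p = 9.3e-08). Both were near or under 1 FPKM in TB. The endothelial genes Pecam1 and Cdh5 did not exceed 0.0441 FPKM in any of the 6 libraries. Sums of 12 endothelial markers, with Plvap, Egfl7 and Vwf the most abundant, were 4.19 to 4.74 FPKM in Met and 3.19 to 4.53 in TB. The part of such cells was not tested. Pdgfc averaged 4.26 ± 0.0425 FPKM in Met, against 1.14 ± 0.135 in TB (1.30 ± 0.10, adjusted p = 6.0e-06) and Igf1 2.76 ± 0.228 FPKM in Met, against 1.49 ± 0.134 in TB (0.59 ± 0.09, adjusted p = 0.001). The macrophage growth factor gene Csf1 averaged 6.61 ± 1.42 FPKM in Met, against 3.2 ± 0.318 in TB (0.84 ± 0.16, adjusted p = 0.0049). Vegfc, a lymphatic growth factor, was lower, at 0.953 ± 0.235 FPKM in Met, against 2.28 ± 0.344 in TB (−0.75 ± 0.12, adjusted p = 0.0014). So was the progranulin gene Grn, at 40.5 ± 2.92 FPKM in Met, against 59.4 ± 2.6 in TB (−0.54 ± 0.07, adjusted p = 0.00067). The other falls were Vegfb and the proliferin genes Prl2c2 and Prl2c3, near-identical copies whose reads the counting may have split. The falls numbered 3 without TB replicate 2, Met replicate 1 or Met replicate 2 and 2 without TB replicate 3. Of 19 receptor tyrosine kinases, 4 rose and 0 fell, and the rises numbered 2 without Met replicate 1. Fgfr3 averaged 10.6 ± 0.841 FPKM in Met, against 5.54 ± 0.321 in TB (0.83 ± 0.08, adjusted p = 5.4e-05). The collagen receptor gene Ddr2 averaged 1.4 ± 0.0739 FPKM in Met, against 0.666 ± 0.079 in TB (0.53 ± 0.08, adjusted p = 0.0016).

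WNT genes were split 4 higher to 4 lower among 25. Notum, a deacylase that inactivates WNT proteins, was at 2.33, 3.38 and 3.22 FPKM in Met, against 0.142, 0.12 and 0.14 FPKM in TB (1.80 ± 0.13, adjusted p = 5.3e-06). The secreted antagonist gene Dkk2 was at 1.14, 1.25 and 1.35 FPKM in Met, against 6.21, 5.97 and 6.23 FPKM in TB (−1.67 ± 0.08, adjusted p = 9.3e-08). Sfrp1, another antagonist, averaged 5.89 ± 0.732 FPKM in Met, against 8.86 ± 0.787 in TB (−0.52 ± 0.10, adjusted p = 0.005). The antagonists therefore moved in opposite directions. The ligand gene Wnt4 averaged 0.431 ± 0.121 FPKM in Met, against 1.61 ± 0.108 in TB (−0.87 ± 0.15, adjusted p = 0.0027) and Wnt7b 0.785 ± 0.16 FPKM in Met, against 1.55 ± 0.149 in TB (−0.52 ± 0.11, adjusted p = 0.011). Both were lower in Met. The receptor gene Fzd1 averaged 5.43 ± 0.551 FPKM in Met, against 3.37 ± 0.0734 in TB (0.55 ± 0.08, adjusted p = 0.00083). Tcf7, a factor that carries the WNT response, averaged 4.74 ± 0.718 FPKM in Met, against 3.39 ± 0.108 in TB (0.38 ± 0.08, adjusted p = 0.01).

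The study's title concerns a memory held in the cytoskeleton, and contractile genes were therefore counted. Of 15 smooth muscle contractile genes, 4 rose and 0 fell, with 3 to 4 rises when 1 library was left out. The list as a whole was split, with 8 positive and 7 negative changes and a median of 0.08. At an unadjusted limma p under 0.05, 4 were higher and 3 lower. Calponin 1, Cnn1, an actin-binding protein of smooth muscle, was at 1.61, 3.51 and 2.33 FPKM in Met, against 0.291, 0.232 and 0.329 FPKM in TB (1.40 ± 0.20, adjusted p = 0.00075). Mylk, myosin light chain kinase, averaged 3.12 ± 0.254 FPKM in Met, against 1.56 ± 0.0326 in TB (0.69 ± 0.08, adjusted p = 0.00014). The LIM protein gene Csrp2 averaged 34.5 ± 3.87 FPKM in Met, against 20.4 ± 1.54 in TB (0.73 ± 0.12, adjusted p = 0.0026). Smooth muscle actin, Acta2, was at 124, 205 and 188 FPKM in Met, against 101, 105 and 102 FPKM in TB (0.70 ± 0.19, adjusted p = 0.04). It was higher in each Met library, but its call was lost without TB replicate 1, TB replicate 2, TB replicate 3, Met replicate 2 or Met replicate 3 (largest adjusted p = 0.14). The pericyte and smooth muscle marker sums were higher in Met too, at 3.76 to 5.31 FPKM against 1.06 to 1.29 FPKM in TB. Cnn1 was the main part of that gap, and the part of such cells was not tested. The pericyte gene Rgs5 stood at 0.375, 0.648 and 0.264 FPKM in Met, against 0.25, 0.458 and 0.408 FPKM in TB and was not called (adjusted p = 0.83). What Cnn1 and Rgs5 left of the marker sums was also higher in Met on average. Of 45 actomyosin genes 3 rose and 1 fell, a called share of 8.89% near the 9.94% of all tested genes, and the median of −0.05 turned to 0.01 with quantile normalization. The myosin light chain gene Myl9 (−0.47 ± 0.17, adjusted p = 0.12) and the myosin-activating kinase genes Rock1 (0.13 ± 0.09, adjusted p = 0.43) and Rock2 (0.02 ± 0.06, adjusted p = 0.88) were not called. Targets of MRTF and SRF had 3 rises and 1 fall among 30, the fall being lost with any 1 library left out. Their called share of 13.3% was not far from the 9.94%.

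The list of YAP and TEAD targets had 10 of 33 members higher and 1 lower, and the rises include Yap1 and Vgll4, which are pathway members. Caveolin 1, Cav1, the coat protein of caveolae, was at 2.38, 3.96 and 3.23 FPKM in Met, against 0.28, 0.151 and 0.179 FPKM in TB (1.78 ± 0.14, adjusted p = 8.8e-06). Yap1 itself averaged 16.4 ± 0.325 FPKM in Met, against 11.9 ± 0.497 in TB (0.43 ± 0.05, adjusted p = 0.00016). Its competitor for TEAD factors, Vgll4, averaged 25.2 ± 0.32 FPKM in Met, against 18.2 ± 0.895 in TB (0.45 ± 0.07, adjusted p = 0.0014). Crim1, Arhgef17 and Asap1 rose by 0.46 ± 0.09, 0.52 ± 0.10 and 0.34 ± 0.07. The widely used target Ankrd1 averaged 2.83 ± 1.08 FPKM in Met, against 1.52 ± 0.186 in TB, and its call was lost without TB replicate 1, TB replicate 2, TB replicate 3, Met replicate 2 or Met replicate 3 (largest adjusted p = 0.15). The rises numbered 7 to 9 when 1 library was left out.

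Among 38 adhesion molecules and surface receptors, 8 rose and 0 fell. Cd24a, a small glycosylated surface protein (chromosome 10, 43454280 to 43460261, plus strand), was at 124, 143 and 146 FPKM in Met, against 38.3, 40.0 and 41.1 FPKM in TB (1.76 ± 0.11, adjusted p = 1.5e-06). Every Met library had over 3-fold the FPKM of any TB library. The cadherin gene Cdh13 averaged 12.3 ± 0.833 FPKM in Met, against 5.88 ± 0.492 in TB (0.95 ± 0.10, adjusted p = 7.3e-05). N-cadherin, Cdh2, averaged 51.8 ± 3.82 FPKM in Met, against 35.7 ± 2.5 in TB (0.52 ± 0.07, adjusted p = 0.00054). Cd248, endosialin, averaged 7.49 ± 0.0492 FPKM in Met, against 3.89 ± 0.325 in TB (0.80 ± 0.13, adjusted p = 0.0024). Of 37 integrin and focal adhesion genes 5 rose (3 without TB replicate 3) and 1 fell. Itgb3, the beta subunit of the vitronectin and osteopontin receptor, averaged 5.33 ± 0.927 FPKM in Met, against 1.95 ± 0.141 in TB (1.09 ± 0.14, adjusted p = 0.00034). The fibronectin receptor subunit gene Itga5 averaged 27 ± 0.766 FPKM in Met, against 17.2 ± 1.75 in TB (0.63 ± 0.12, adjusted p = 0.0046). The scaffold gene Nedd9 averaged 5.83 ± 0.0202 FPKM in Met, against 3.03 ± 0.34 in TB (0.76 ± 0.08, adjusted p = 9.8e-05).

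Of 43 axon guidance and neural genes, 12 rose and 7 fell, and the rises numbered 6 without TB replicate 2 or TB replicate 3 and 5 without Met replicate 1. Sema3a, a repulsive guidance ligand, was at 4.83, 5.92 and 5.62 FPKM in Met, against 1.97, 1.99 and 1.66 FPKM in TB (1.17 ± 0.11, adjusted p = 4.3e-05). Its receptor Nrp1, neuropilin 1, averaged 5.61 ± 0.748 FPKM in Met, against 2.28 ± 0.16 in TB (1.01 ± 0.10, adjusted p = 4.1e-05). Ligand and receptor were higher in the same libraries. The ephrin gene Efnb1 averaged 15.4 ± 1.69 FPKM in Met, against 7.8 ± 0.941 in TB (0.90 ± 0.13, adjusted p = 0.00082). The neuronal cytoskeleton genes Nefl, Nefm and Tubb3 and the collapsin response mediator gene Crmp1 fell, with log2 changes of −0.57 ± 0.07, −0.50 ± 0.10, −0.38 ± 0.06 and −0.66 ± 0.05. Syt4, a vesicle protein of neurons and endocrine cells outside that list, had one of the largest falls, at 2.53, 1.79 and 2.02 FPKM in Met, against 25.5, 24.8 and 23.1 FPKM in TB (−3.04 ± 0.12, adjusted p = 2.6e-08). So did Basp1, a growth cone membrane protein, at 1.34, 2.5 and 2.06 FPKM in Met, against 15.8, 17.3 and 17.7 FPKM in TB (−2.61 ± 0.18, adjusted p = 3.5e-06).

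NRF2 target genes, which detoxify electrophiles and supply NADPH and glutathione, had 9 of 33 higher and 2 lower. Nqo1, a quinone reductase, was at 8, 11.8 and 10.3 FPKM in Met, against 2.01, 2.08 and 1.66 FPKM in TB (1.90 ± 0.20, adjusted p = 9.5e-05). Gclc, the catalytic subunit of glutathione synthesis, averaged 16.3 ± 1.09 FPKM in Met, against 11.9 ± 0.588 in TB (0.42 ± 0.09, adjusted p = 0.0084). Of the NADPH-producing genes, Pgd averaged 26.4 ± 2.33 FPKM in Met, against 18.4 ± 0.375 in TB (0.49 ± 0.10, adjusted p = 0.01). Me1 averaged 32.5 ± 3.07 FPKM in Met, against 23 ± 1.18 in TB (0.48 ± 0.09, adjusted p = 0.0038). The glutathione conjugate pump gene Abcc1 averaged 4.56 ± 0.505 FPKM in Met, against 2.18 ± 0.232 in TB (0.81 ± 0.12, adjusted p = 0.0011). Mgst1, a microsomal glutathione transferase, was the clearest exception, at 0.0819, 0.163 and 0.217 FPKM in Met, against 1.78, 1.81 and 2.32 FPKM in TB (−1.36 ± 0.10, adjusted p = 7.7e-06). The best-known targets did not all move: Hmox1 (0.15 ± 0.16, adjusted p = 0.63), Txnrd1 (0.32 ± 0.12, adjusted p = 0.12) and the cystine transporter gene Slc7a11 (0.22 ± 0.14, adjusted p = 0.39) were not called.

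Nqo1 is also induced by the aryl hydrocarbon receptor, a ligand-activated factor that senses planar aromatic compounds. It was the only call shared by the NRF2 list and a list of this receptor and its target genes. This list was added after the values had been seen, so its count is a description. Of 11 tested members 8 rose and 0 fell. The rises include the receptor gene itself and Arnt2, a relative of its partner gene Arnt, so not all of them are targets. The receptor gene Ahr was at 6.92, 7.13 and 7.46 FPKM in Met, against 3.1, 3.36 and 3.2 FPKM in TB (0.95 ± 0.08, adjusted p = 1.4e-05). Cyp1a1, the cytochrome P450 that is its classical target, was at 4.56, 3.76 and 6.01 FPKM in Met, against 0.51, 0.601 and 0.705 FPKM in TB (1.83 ± 0.21, adjusted p = 0.00016). Aldh3a1, an aldehyde dehydrogenase induced with it, was at 10.8, 14.6 and 14.3 FPKM in Met, against 1.64, 1.58 and 1.27 FPKM in TB (2.50 ± 0.18, adjusted p = 4.4e-06). The receptor and both targets were higher in each of the 3 Met libraries. Of the list 2 members were lower in each Met library and were not called, among them the receptor's partner Arnt (−0.15 ± 0.07, adjusted p = 0.19). Cyp1b1 averaged 15.3 ± 0.368 FPKM in Met, against 8.63 ± 0.277 in TB (0.76 ± 0.09, adjusted p = 0.0002). The ADP-ribosyltransferase gene Tiparp averaged 15.2 ± 2.28 FPKM in Met, against 8.97 ± 0.476 in TB (0.69 ± 0.11, adjusted p = 0.0018). The glucuronosyltransferase gene Ugt1a7c averaged 1.54 ± 0.185 FPKM in Met, against 0.418 ± 0.0825 in TB (0.84 ± 0.11, adjusted p = 0.00057). Ugt1a genes share exons, so reads may be shared within that family.

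Gatm, the mitochondrial enzyme of the first step of creatine synthesis (chromosome 2, 122424948 to 122441784, minus strand), had the smallest p among the rises. It was at 24.6, 24.9 and 24.4 FPKM in Met, against 3.52, 3.89 and 3.59 FPKM in TB, 6.71-fold higher in mean FPKM (log2 fold change 2.46 ± 0.07 (SE), adjusted p = 2.0e-09). The values within each group differed by less than 1 FPKM. It was the 1 call among 4 creatine genes tested.

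Some melanocyte genes that the cells still expressed fell in Met. Of 12 tested, 0 rose and 4 fell, with 3 to 4 falls when 1 library was left out. The falls were Gpnmb, Mitf, Mc1r and Slc7a5. Slc7a5, an amino acid transporter gene, is counted again among the falls of the ATF4 list below. Mitf, the master factor of the lineage (chromosome 6, 97784013 to 97998310, plus strand), was at 5.21, 3.82 and 3.73 FPKM in Met, against 15.7, 15.2 and 14.5 FPKM in TB (−1.63 ± 0.17, adjusted p = 8.0e-05). Gpnmb, a melanosomal and lysosomal glycoprotein and a target of the MiT/TFE factors, was at 6.68, 6.45 and 6.57 FPKM in Met, against 97, 93.4 and 90.1 FPKM in TB (−3.64 ± 0.10, adjusted p = 2.0e-09). The 3 Met values of Gpnmb lay within 1 FPKM of each other, and the mean was 14.2-fold lower than in TB. The melanocortin receptor gene Mc1r averaged 0.13 ± 0.0374 FPKM in Met, against 0.746 ± 0.0453 in TB (−0.63 ± 0.12, adjusted p = 0.0065). The related factor genes Tfeb (−0.09 ± 0.11, adjusted p = 0.69) and Tfe3 (0.23 ± 0.08, adjusted p = 0.095) were not called. Of 26 genes of the dedifferentiated and invasive state 7 rose and 1 fell, but the rises numbered 2 without TB replicate 3, 3 without Met replicate 3 and 4 without TB replicate 2, and the fall was lost with any 1 library left out. Axl (0.16 ± 0.06, adjusted p = 0.15) and Ngfr (−0.19 ± 0.09, adjusted p = 0.22), markers of that state, were not called.

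Lysosome genes and the ATF4 list described after them had the most falls, with 21 of 60 and 19 of 40. Their order in this count changed with the setting, at 22 and 23 with voom and 16 and 19 without Met replicate 2. Of the 60 lysosome genes 1 rose, 46 had a negative change, and the median was −0.14. Hexa, a subunit of an acid hydrolase, averaged 199 ± 7.22 FPKM in Met, against 295 ± 8.37 in TB (−0.57 ± 0.06, adjusted p = 5.2e-05). Of the cathepsins, which are abundant lysosomal proteases, Ctsb averaged 188 ± 9.2 FPKM in Met, against 269.9 ± 4.6 in TB (−0.52 ± 0.06, adjusted p = 0.0002). Ctsl averaged 116 ± 6.94 FPKM in Met, against 181 ± 10.1 in TB (−0.64 ± 0.07, adjusted p = 0.00015). These changes were small against those of Mitf and Gpnmb but larger than the spread between libraries. Scarb2, the receptor that carries glucocerebrosidase to the lysosome, averaged 21.2 ± 2.58 FPKM in Met, against 35.5 ± 0.766 in TB (−0.72 ± 0.11, adjusted p = 0.0011). Npc2, the cholesterol transfer protein, averaged 52.4 ± 2.56 FPKM in Met, against 64.8 ± 2.9 in TB (−0.30 ± 0.06, adjusted p = 0.0086). Among proton pump subunits, Atp6v0d2, known from osteoclasts and macrophages, was at 0.0202, 0.0201 and 0 FPKM in Met, against 1.65, 1.51 and 1.88 FPKM in TB (−1.40 ± 0.11, adjusted p = 1.3e-05). The common subunit gene Atp6v1b2 averaged 24.4 ± 1.25 FPKM in Met, against 35.7 ± 2.07 in TB (−0.53 ± 0.06, adjusted p = 9.1e-05). Lipa, the acid lipase, was the 1 rise, at 18 ± 0.895 FPKM in Met, against 13.6 ± 0.66 in TB, and was not called with any 1 library left out (largest adjusted p = 0.12). Leaving out 1 library at a time left 16 to 18 falls. Leukocytes are rich in lysosomes, and the leukocyte marker sums given above were lower in Met as well, at under 2 FPKM in all 6 libraries, and their part in this result was not tested.

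Promoters of the lysosomal genes were searched for the CLEAR core TCACGTG, the E-box that MiT/TFE factors bind, in the 250 bases before each RefSeq gene start (GRCm38.p6) on both strands. It stood in 13 of 47 matched list members (27.7%) and in 3.58% of 27025 genes with a promoter. The list holds lysosome genes, which these factors partly control, so its share says nothing on Met against TB. Many of the 27025 genes were not tested here. Of 14 matched genes that fell 6 had the core, and of 33 others 7. A match is a description of the letters and not a bound site. The windows of 50 bases around a match are printed for the 6 that fell, in the direction of the gene, with the core, on either strand, in capitals. The palindrome TCACGTGA holds overlapping matches on both strands. They come from chr8:13159077-13159126 (plus) for Lamp1, chr2:164833723-164833772 (plus) for Ctsa, chr7:142388028-142388077 (minus) for Ctsd, chrX:134601206-134601255 (minus) for Gla, chr9:114401007-114401056 (plus) for Glb1 and chr11:101069998-101070047 (plus) for Naglu.
Lamp1: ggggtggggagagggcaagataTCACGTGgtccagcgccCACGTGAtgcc
Ctsa: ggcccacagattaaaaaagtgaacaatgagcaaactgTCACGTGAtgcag
Ctsd: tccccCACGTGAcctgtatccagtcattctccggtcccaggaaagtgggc
Gla: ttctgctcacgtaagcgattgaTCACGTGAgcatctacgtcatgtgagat
Glb1: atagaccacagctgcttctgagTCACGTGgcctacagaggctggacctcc
Naglu: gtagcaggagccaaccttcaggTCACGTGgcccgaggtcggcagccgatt

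Of these 6 genes, Ctsa, a protective protein of lysosomal enzymes, averaged 38.8 ± 1.58 FPKM in Met, against 51.8 ± 0.576 in TB (−0.41 ± 0.06, adjusted p = 0.00088). The alpha-galactosidase gene Gla averaged 9.22 ± 0.564 FPKM in Met, against 12.9 ± 0.463 in TB (−0.44 ± 0.08, adjusted p = 0.0027). The beta-galactosidase gene Glb1 averaged 19.7 ± 1.69 FPKM in Met, against 25.6 ± 0.713 in TB (−0.37 ± 0.07, adjusted p = 0.008). Lamp1, the major lysosomal membrane protein, was at 240.2, 232 and 232 FPKM in Met, against 282, 286 and 284 FPKM in TB (−0.28 ± 0.05, adjusted p = 0.004). It was not called with quantile normalization. Ctsd, an aspartic protease, was not called with any 1 library left out (largest adjusted p = 0.17). The glucosaminidase gene Naglu was not called without TB replicate 1, TB replicate 2, TB replicate 3, Met replicate 2 or Met replicate 3 (largest adjusted p = 0.073).

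**Figure D4:**
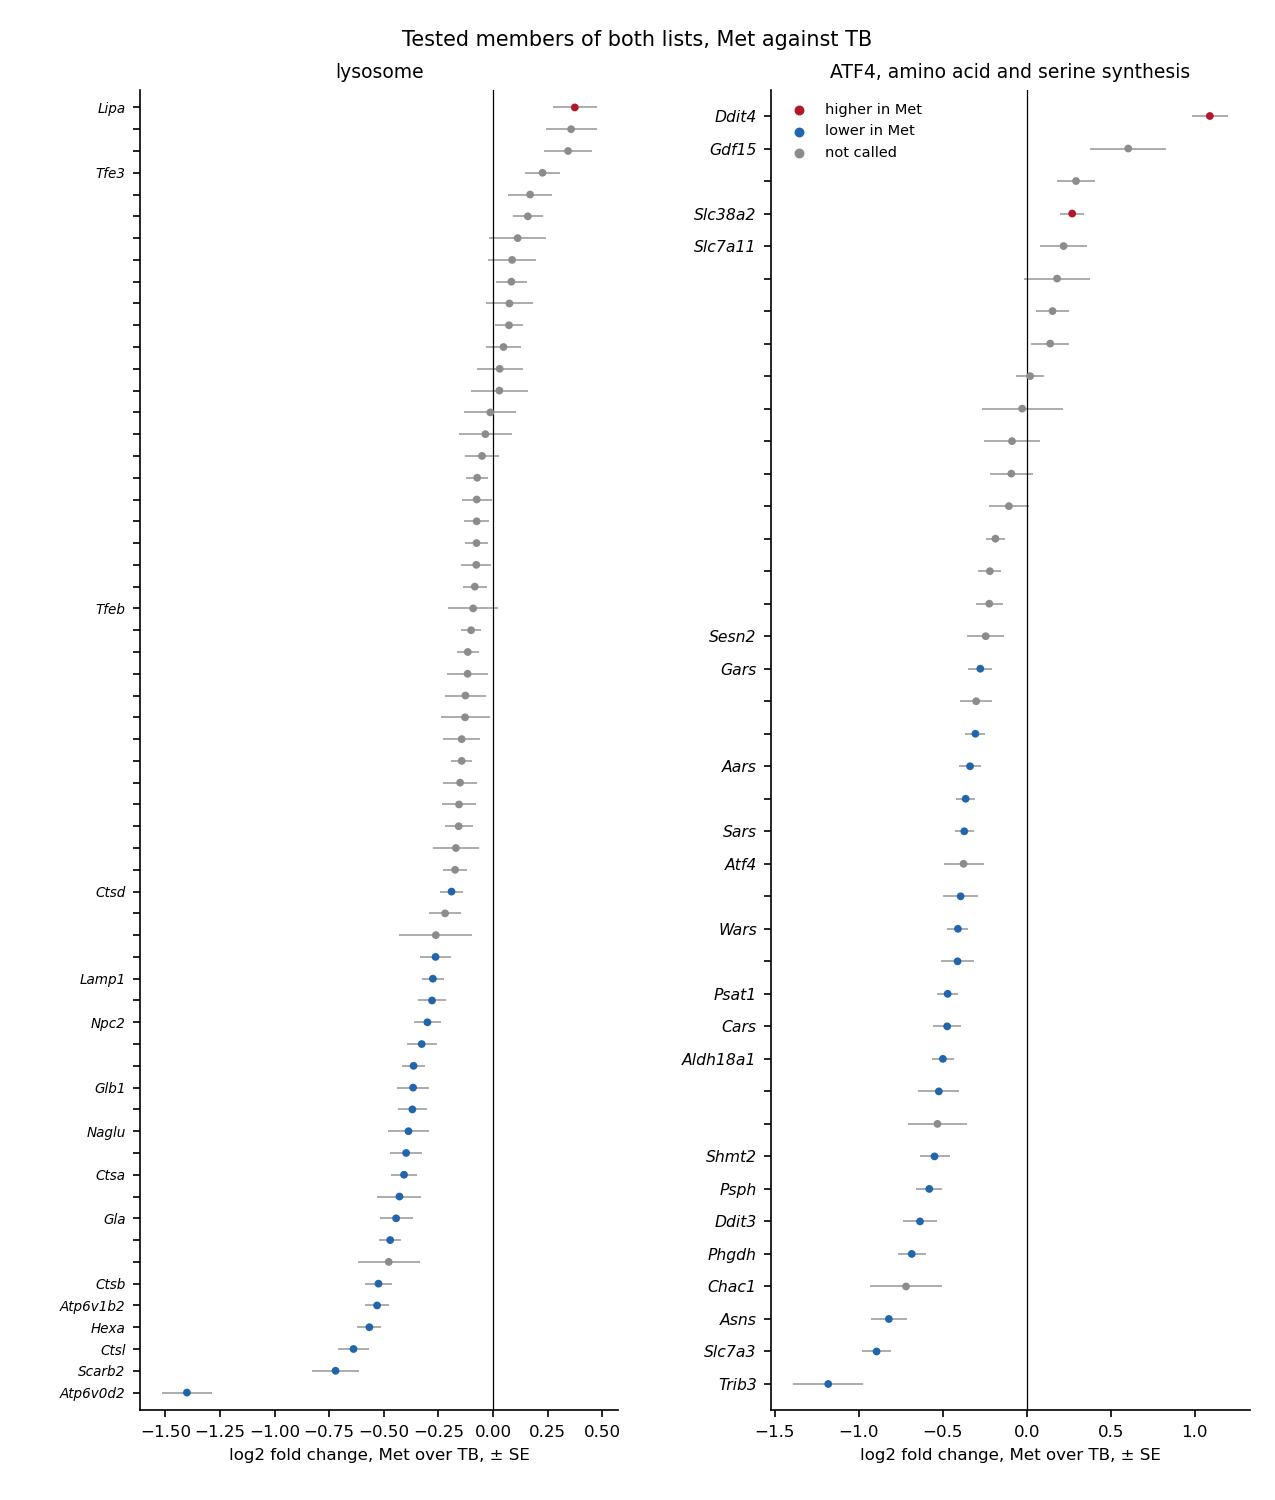
Log2 fold change of Met over TB (horizontal axis, log2(FPKM + 1) scale) ± SE for the tested members of the lysosome list and of the ATF4, amino acid and serine synthesis list, with called members in colour and those described in the text labelled. Atp6v0d2 and Trib3 have the largest falls, 46 of 60 lysosome genes lie left of 0, and the called genes right of 0 are Lipa, Ddit4 and Slc38a2.

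Genes of amino acid supply made up another group of falls. Of 40 ATF4 targets and genes of amino acid and serine synthesis, 19 fell and 2 rose, with a median of −0.32, and 15 to 19 fell when 1 library was left out. Trib3, a pseudokinase induced by ATF4, was at 1.94, 4.39 and 3.65 FPKM in Met, against 8.13, 8.73 and 8.67 FPKM in TB (−1.18 ± 0.21, adjusted p = 0.0035). Asns, asparagine synthetase, was at 45.4, 62.2 and 56.9 FPKM in Met, against 90.8, 99.7 and 100.2 FPKM in TB (−0.82 ± 0.11, adjusted p = 0.00039). Phgdh, the first enzyme of serine synthesis, was at 57.5, 68.8 and 65.8 FPKM in Met, against 95.8, 107 and 107 FPKM in TB (−0.68 ± 0.08, adjusted p = 0.00023). In all 3 genes Met replicate 1 was the lowest library, and all Met values lay below all TB values. The next enzymes of the pathway fell too. Psat1 averaged 51.1 ± 3.12 FPKM in Met, against 71.1 ± 1.95 in TB (−0.47 ± 0.06, adjusted p = 0.00054). Psph averaged 11.5 ± 0.839 FPKM in Met, against 17.7 ± 0.429 in TB (−0.58 ± 0.08, adjusted p = 0.0005). The mitochondrial serine hydroxymethyltransferase gene Shmt2 averaged 57.2 ± 3.7 FPKM in Met, against 84.1 ± 0.5 in TB (−0.55 ± 0.09, adjusted p = 0.002). Aldh18a1, the first step of proline synthesis, and the cationic amino acid transporter gene Slc7a3 changed by −0.50 ± 0.07 and −0.89 ± 0.09. The tRNA synthetase genes Aars, Cars, Sars and Wars changed by −0.34 ± 0.07, −0.47 ± 0.08, −0.37 ± 0.05 and −0.41 ± 0.06. Ddit3, the stress factor CHOP, averaged 7.78 ± 0.752 FPKM in Met, against 12.6 ± 1.23 in TB (−0.64 ± 0.10, adjusted p = 0.0014). Ddit4, an inhibitor of mTORC1 that answers other stresses as well, was 1 of the 2 rises, at 24.9, 28.3 and 31.3 FPKM in Met, against 12.4, 12.7 and 12.9 FPKM in TB (1.09 ± 0.11, adjusted p = 5.1e-05). The other rise was Slc38a2, an amino acid transporter gene, so the called genes of amino acid supply did not all fall. The transcript of Atf4 itself was at 125, 153 and 149 FPKM in Met, against 171, 187 and 196 FPKM in TB, without overlap but not called (−0.38 ± 0.12, adjusted p = 0.071). Its targets Chac1 (−0.72 ± 0.22, adjusted p = 0.058), Sesn2 (−0.24 ± 0.11, adjusted p = 0.21) and Gdf15 (0.60 ± 0.22, adjusted p = 0.12) were not called either.

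The letters TGATGNAA, the core of the amino acid response element that ATF4 binds with a partner, stood within 250 bases before the gene start in 9 of 33 matched members of this list (27.3%), on either strand, and in 3.91% of 27025 genes. The list holds ATF4 targets by choice, so its share says nothing on Met against TB. Many of the 27025 genes were not tested here. Of 14 matched genes that fell 3 had the core, and of 19 others 6. The 3 windows are printed in the direction of the gene with the core in capitals, from chr6:7693210-7693259 (minus) for Asns, chr8:111033709-111033758 (plus) for Aars and chr6:55037950-55037999 (plus) for Gars. Gars, a glycyl-tRNA synthetase, averaged 129 ± 7.53 FPKM in Met, against 157 ± 3.53 in TB and was not called without TB replicate 1, TB replicate 2, TB replicate 3, Met replicate 1 or Met replicate 3 (largest adjusted p = 0.11).
Asns: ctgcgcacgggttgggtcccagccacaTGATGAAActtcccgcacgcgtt
Aars: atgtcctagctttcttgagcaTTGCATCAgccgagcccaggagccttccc
Gars: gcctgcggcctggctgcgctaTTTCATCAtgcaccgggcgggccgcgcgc

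Of 26 endoplasmic reticulum chaperones 5 fell and 0 rose. The falls numbered 3 without TB replicate 1, TB replicate 2, TB replicate 3, Met replicate 1 or Met replicate 3. Sdf2l1, a cofactor of the chaperone BiP, averaged 22.6 ± 0.692 FPKM in Met, against 39 ± 3.1 in TB (−0.76 ± 0.07, adjusted p = 4.1e-05). The prolyl isomerase gene Ppib averaged 57.9 ± 4.03 FPKM in Met, against 76.4 ± 3.13 in TB (−0.40 ± 0.07, adjusted p = 0.0023). Hspa5, which encodes BiP, was not called (−0.19 ± 0.09, adjusted p = 0.21). Of 19 heat shock genes 3 rose. The small heat shock gene Hspb1 averaged 13.3 ± 2.37 FPKM in Met, against 6.24 ± 0.42 in TB (0.97 ± 0.20, adjusted p = 0.009). Hspb8 averaged 135 ± 12.8 FPKM in Met, against 103 ± 4.02 in TB (0.39 ± 0.08, adjusted p = 0.0069). Their partner gene Bag3 averaged 93 ± 4.48 FPKM in Met, against 69.9 ± 4.86 in TB (0.41 ± 0.07, adjusted p = 0.0042). The 1 fall, Serpinh1, is the collagen chaperone of the endoplasmic reticulum.

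Cytokine genes changed in both directions. Of 27 tested, 3 rose and 4 fell. Il33, an alarmin of barrier tissues, was at 18, 17.5 and 17 FPKM in Met, against 66.4, 68.7 and 70.9 FPKM in TB (−1.91 ± 0.13, adjusted p = 1.9e-06). Ccl8, a monocyte chemokine, was nearly absent from Met, at 0, 0.107 and 0 FPKM in Met, against 2.89, 4.18 and 5.61 FPKM in TB (−2.30 ± 0.20, adjusted p = 1.8e-05). Ccl2, which recruits monocytes, stood at 2.95, 6.04 and 6.33 FPKM in Met, against 14.5, 14.1 and 14.7 FPKM in TB (−1.39 ± 0.20, adjusted p = 0.00098). The TB libraries were higher in all 3 genes, without overlap. Il11, a cytokine of the gp130 family, moved the other way, at 26.8, 42.9 and 46 FPKM in Met, against 11.8, 12.4 and 12.3 FPKM in TB (1.55 ± 0.25, adjusted p = 0.0017). Of 16 MHC class I presentation genes 4 fell and 0 rose. The falls numbered 2 without TB replicate 1, TB replicate 2, TB replicate 3, Met replicate 1 or Met replicate 3. Raet1d and Raet1e encode ligands of the natural killer receptor NKG2D and were steadier. Raet1d averaged 4.79 ± 0.355 FPKM in Met, against 9.93 ± 0.645 in TB (−0.92 ± 0.11, adjusted p = 0.00018). Raet1e averaged 3.83 ± 0.261 FPKM in Met, against 5.76 ± 0.368 in TB (−0.48 ± 0.08, adjusted p = 0.0021). They are close relatives in 1 cluster, and reads may be shared between them. The classical MHC genes H2-D1 and H2-K1 were the other calls. H2-D1 was lost with any 1 library left out (largest adjusted p = 0.14). H2-K1 was lost without TB replicate 1, TB replicate 2, TB replicate 3, Met replicate 1 or Met replicate 3 (largest adjusted p = 0.13). Of 30 interferon response genes 3 rose and 1 fell, a called share of 13.3%, not far from the 9.94% of all tested genes.

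Several genes outside these programmes fell far. Csn3, kappa-casein, a milk protein (chromosome 5, 88073438 to 88080524, plus strand), had the largest fall, at 0.94, 0.815 and 0.959 FPKM in Met, against 26.8, 29.9 and 31.5 FPKM in TB (log2 fold change −3.99 ± 0.12 (SE), adjusted p = 2.0e-09). Apoe, the lipid carrier apolipoprotein E (chromosome 7, 19430034 to 19433113, minus strand), was at 0.72, 1.02 and 1.3 FPKM in Met, against 18, 19 and 18 FPKM in TB (−3.27 ± 0.11, adjusted p = 1.0e-08). Lgals3, galectin 3, a galactoside-binding lectin, was at 36.8, 70.5 and 65.7 FPKM in Met, against 307, 317 and 320.3 FPKM in TB (−2.48 ± 0.26, adjusted p = 8.4e-05). Csn3 was close between libraries of each group, whereas the Met libraries spread almost 2-fold for Apoe and for Lgals3, with replicate 1 lowest in both. Apoe, Gpnmb, Lgals3 and Ccl8 are also known from macrophages. The macrophage receptor genes Adgre1 and Csf1r and the leukocyte gene Ptprc did not exceed 0.0284 FPKM in any of the 6 libraries. Summed FPKM of 22 leukocyte markers, with Lyz2, Cd14 and S100a8 the most abundant, was 0.278 to 0.633 in Met and 0.979 to 1.51 in TB. That sum was lower in Met, as these genes were, and the part of such cells was not tested. Prxl2b, a prostamide and prostaglandin F synthase, was at 0.107, 0.372 and 0.478 FPKM in Met, against 7.3, 5.91 and 6.18 FPKM in TB (−2.51 ± 0.13, adjusted p = 2.0e-07). Lat, an adaptor known from T cells, was at 0.0795, 0.0592 and 0.0789 FPKM in Met, against 5.95, 5.37 and 6.54 FPKM in TB (−2.69 ± 0.10, adjusted p = 1.7e-08). Nox3, a NADPH oxidase known from the inner ear, was at 0.123, 0.244 and 0.152 FPKM in Met, against 5.74, 6.35 and 4.95 FPKM in TB (−2.51 ± 0.09, adjusted p = 1.7e-08). Of 31 lipid handling genes 5 fell and 3 rose. Apod, a lipocalin, averaged 8.66 ± 3.79 FPKM in Met, against 31.5 ± 2.58 in TB (−1.81 ± 0.29, adjusted p = 0.002). The fatty acid binding protein gene Fabp5 averaged 34.6 ± 2.05 FPKM in Met, against 52.2 ± 5.34 in TB (−0.58 ± 0.10, adjusted p = 0.0024). Its relative Fabp7 averaged 3.11 ± 1.27 FPKM in Met, against 9.93 ± 1.86 in TB (−1.44 ± 0.29, adjusted p = 0.0077).

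A list of lung metastasis genes known from human breast cancer lines, of which 19 were tested, had 5 higher and 4 lower. The rises were Spp1, Id3, Ltbp1, Tnc and Areg, and numbered 3 without TB replicate 1, TB replicate 3, Met replicate 1 or Met replicate 3. Mmp1a, Mmp2, Lgals3 and Sparc fell. Sparc was at 862, 899 and 835 FPKM in Met, against 1042, 1070 and 1059 FPKM in TB (−0.29 ± 0.07, adjusted p = 0.016). It lost its call without TB replicate 2, TB replicate 3, Met replicate 1 or Met replicate 3 (largest adjusted p = 0.08).

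Several growth and energy programmes had 0 called genes. Of 44 G2 and mitosis genes limma called 0, with 4 higher at an unadjusted p under 0.05 and 1 higher in voom on rebuilt reads, and the median was 0.07. Of 49 replication genes 1 rose and 1 fell, the fall being lost with any 1 library left out. Of 54 nuclear genes of oxidative phosphorylation limma called 0, with 10 lower at an unadjusted p under 0.05 and 1 lower in voom, although 51 had a negative change (median −0.13). Of 73 cytosolic ribosomal protein genes limma called 0, with 17 lower at an unadjusted p under 0.05 and 2 lower in voom, and 72 had a negative change, with a median of −0.16 that was −0.05 with quantile normalization. The 15 mitochondrially encoded genes all had positive changes (median 0.12, or 0.22 with quantile normalization), with 0 called by limma, 0 at an unadjusted p under 0.05 and 0 in voom. These small shifts mostly shared 1 direction within a list but were not separable from the spread gene by gene. Of 19 G1 cyclins and inhibitors 3 fell, among them the MYC family gene Mycn, which the list also holds, at 0.52 ± 0.143 FPKM in Met, against 2.02 ± 0.283 in TB (−0.99 ± 0.13, adjusted p = 0.0005). Of 39 glycolysis and hypoxia genes 2 rose and 2 fell, a called share of 10.3% near the 9.94% of all tested genes. Egln3, an oxygen-sensing hydroxylase, averaged 1.73 ± 0.229 FPKM in Met, against 0.348 ± 0.113 in TB (1.02 ± 0.14, adjusted p = 0.00083). The stress gene Ndrg1 averaged 4.02 ± 0.121 FPKM in Met, against 6.86 ± 0.36 in TB (−0.65 ± 0.11, adjusted p = 0.0021). Of 67 chromatin modifiers 2 rose and 0 fell, and 1 rose without TB replicate 2, TB replicate 3 or any of the Met replicates.

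The share of transcription factors called was close to that of all genes. Of 830 tested genes that the table assigns to a transcription factor family 76 were called (9.16%), 56 higher and 20 lower. Meox1, a homeobox factor of the somites (chromosome 11, 101768336 to 101785200, minus strand), had the largest rise among them, at 6.37, 8.89 and 6.9 FPKM in Met, against 0.0255, 0.156 and 0.151 FPKM in TB (2.91 ± 0.12, adjusted p = 2.6e-08). Foxs1, a forkhead factor known from pericytes and neural crest derivatives, was at 4.91, 2.62 and 3.95 FPKM in the Met libraries and listed at 0 in the 3 TB libraries (adjusted p = 1.3e-05). Both were near 0 in TB and at several FPKM in Met. Of 39 developmental factors 6 rose and 2 fell, and the falls numbered 0 without TB replicate 1, TB replicate 2, Met replicate 2 or Met replicate 3 and 1 without TB replicate 3 or Met replicate 1. The T-box gene Tbx2 averaged 8.71 ± 1.26 FPKM in Met, against 5.47 ± 0.461 in TB (0.58 ± 0.10, adjusted p = 0.004) and Tbx18 4.69 ± 0.365 FPKM in Met, against 3.41 ± 0.139 in TB (0.37 ± 0.07, adjusted p = 0.0084). Gata2, a zinc finger factor, averaged 1.14 ± 0.219 FPKM in Met, against 0.333 ± 0.0554 in TB (0.67 ± 0.12, adjusted p = 0.0045).

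Met was also tested directly against the other tumour groups. Met differed from DIF in 489 genes (3.86%), 299 higher (2.36%) and 190 lower (1.5%). It differed from PIF in 2234 genes (17.6%), 1120 higher (8.85%) and 1114 lower (8.8%). Without DIF replicate 1 or 2 the Met to DIF count was 286 or 277. Without Met replicate 2 or 3 it was 257 or 234. Of the 673 genes that rose against TB, 162 (1.28% of all tested) were also higher against DIF and 19 (0.15%) were lower. Of the 586 that fell, 86 (0.679%) were also lower against DIF and 5 (0.0395%) were higher. These tests share the Met libraries, so the counts are a description. In 153 genes (1.21%) Met differed in the same direction from each of TB, DIF and PIF, above them in 103 (0.814%) and below them in 50 (0.395%).

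Gatm had the smallest p among these against DIF, at 24.6 ± 0.238 FPKM in Met, 3.74 ± 0.279 in DIF, 3.02 ± 0.27 in PIF and 3.67 ± 0.195 in TB (SD, n = 3 each). The 3 tumour groups lay within 1 FPKM of each other. Cd24a averaged 138 FPKM in Met, 34 in DIF, 47.8 in PIF and 39.8 in TB, and Angpt2 6.38 in Met, 0.959 in DIF, 1.78 in PIF and 1.12 in TB. Against DIF the log2 changes were 2.43 ± 0.07 (adjusted p = 3.5e-09) for Gatm, 1.99 ± 0.11 (adjusted p = 1.8e-06) for Cd24a and 1.92 ± 0.08 (adjusted p = 1.7e-07) for Angpt2. Bmp2 (adjusted p = 1.8e-06 against DIF), Glipr1, a secreted CAP protein (adjusted p = 3.0e-05), Meox1 (adjusted p = 0.00033), Fgf7 (adjusted p = 0.0012) and Aldh3a1 (adjusted p = 0.0011) were also above all 3 groups. Meox1, Fgf7 and Glipr1 had means of 2.91, 2.42 and 1.33 FPKM in DIF, between Met and TB.

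Prxl2b was below all 3 groups, at 0.319 FPKM in Met, 5.88 in DIF, 4.3 in PIF and 6.46 in TB (adjusted p = 1.4e-06 against DIF). Apoe was too, at 1.01 FPKM in Met, 5.95 in DIF, 7.24 in PIF and 18.3 in TB (adjusted p = 4.5e-06). Basp1, Csn3, Dkk2 and the muscle protein gene Mlip behaved likewise. The melanocyte genes did not: Gpnmb averaged 6.57 FPKM in Met and 7.66 in DIF (−0.19 ± 0.10, adjusted p = 0.4), and Mitf 4.25 FPKM in Met and 4.24 in DIF (0.02 ± 0.17, adjusted p = 0.98). Htra1 (−0.24 ± 0.16, adjusted p = 0.5), Spp1 (0.15 ± 0.14, adjusted p = 0.67) and Lgals3 (0.80 ± 0.26, adjusted p = 0.13) were not called between Met and DIF either, which does not show that they were equal.

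**Figure D5:**
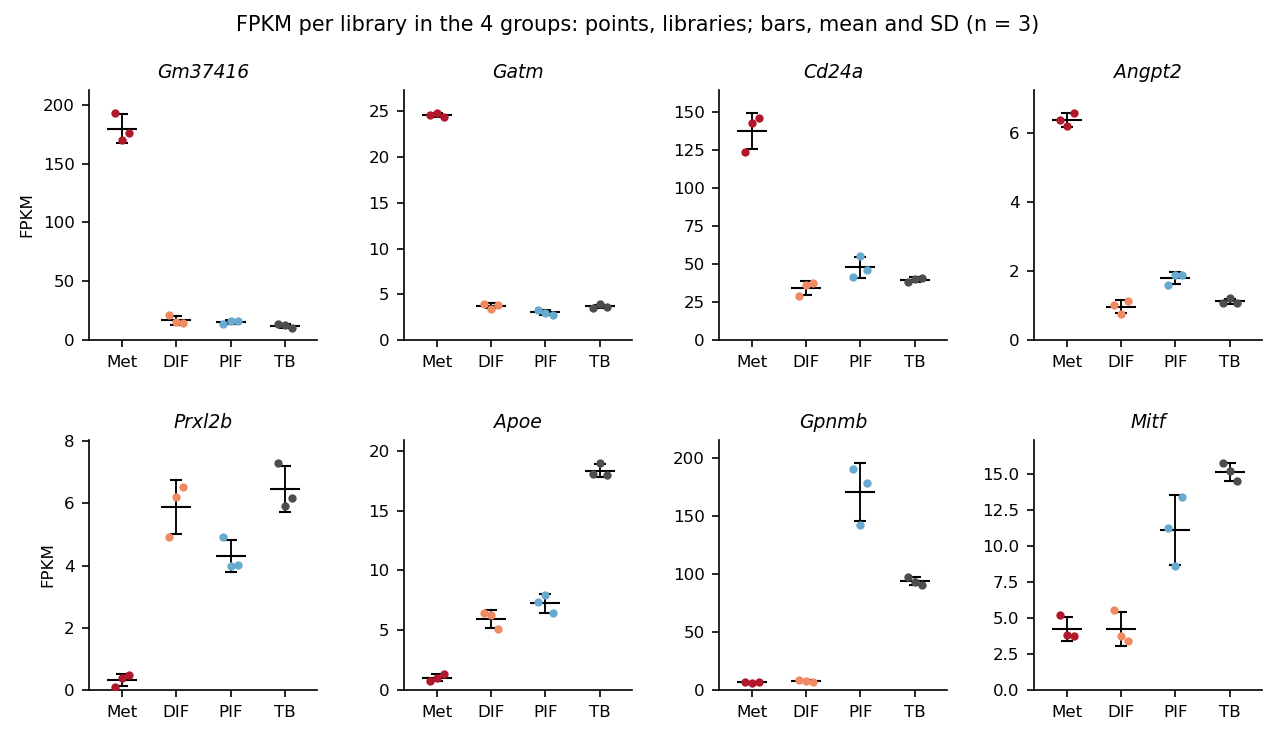
FPKM in each library (points) of 8 genes in Met, DIF, PIF and TB, from left to right in each panel, with mean ± SD of 3 libraries. Gm37416, Gatm, Cd24a and Angpt2 are high in Met alone, Prxl2b and Apoe are lowest in Met, and Gpnmb and Mitf are low in Met and in DIF.

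Noncoding genes gave 74 calls with other non-protein-coding types. Of 679 lncRNA genes tested, 43 were called, 18 higher and 25 lower, a smaller share than the 9.94% of all tested genes. Gm37416, a short transcript still to be experimentally checked per the table's biotype (chromosome 2, 16027919 to 16028236, minus strand), was at 193, 170.0 and 176 FPKM in Met, against 13.9, 12.4 and 10.6 FPKM in TB (3.77 ± 0.14, adjusted p = 1.4e-08). It averaged 16.8 FPKM in DIF and 15.2 in PIF. It was the largest rise of any gene and stood above every other group. Gm19253, listed just past the end of Gpnmb on the same chromosome and strand (chromosome 6, 49048564 to 49048870, plus strand), was at 0 in the 3 Met libraries and at 3.7, 2.63 and 3.84 FPKM in the TB libraries, which is the direction of Gpnmb. The U1 small nuclear RNA gene Rnu1a1 was at 18.1, 22.3 and 23.6 FPKM in Met, against 54.4, 62 and 51 FPKM in TB (−1.35 ± 0.13, adjusted p = 5.4e-05). U1 genes have near-identical copies, so this value is uncertain.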

How the data were processed

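RNA of 4599 mouse melanoma cells was sequenced in paired 150-base reads, per the labels' protocols. Per the submitters' processing notes, fastp, HISAT2 2.0.5 and featureCounts 1.5.0-p3 were used. Coordinates are those of the deposited table, because its build is not given in the sources used here, nor are annotation release and strandedness. The authors deposited FPKM per gene and library, with 3 libraries in each of 4 groups. Values times gene length were whole multiples of 1 read's worth in 100% of cases (tolerance 0.001), so reads per library could be rebuilt.

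Log2(FPKM + 1) of genes with a mean of at least 0.5 FPKM was fitted with limma 3.58.1 in R 4.3.3 (1 mean per group, 12 libraries, 8 residual degrees of freedom, intensity trend, two-sided contrasts), with Benjamini-Hochberg adjustment over 12661 genes, and genes were called at an adjusted p under 0.05. The fit was tested on simulated data. Tables were made with python 3.11.15 and pandas 2.3.3. Levels are means ± SD (n = 3), and changes have their SE.

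The comparison, its members and the gene lists were chosen with earlier results of these data known. Named genes were the largest calls in log2 change and in FPKM, the 4 smallest p per list, the largest changes against all 3 other groups, the 5 largest noncoding rises and falls, and marker genes. Other named genes, and the list of aryl hydrocarbon receptor genes, were chosen after their values were seen. Alternatives were a pseudocount of 0.1, filters at 0 and 2 FPKM, only the 2 groups compared, quantile normalization, no trend, voom on the rebuilt reads, a replicate block and each library left out. Promoter letters are from RefSeq (GRCm38.p6), matched by symbol.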

Additional observations from a re-analysis of the deposited data

How the results depend on the processing

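The Met to TB count of 1259 was 1254 with a pseudocount of 0.1, 1153 of 27256 genes with no filter (922 shared), 1030 of 9765 with a minimum of 2 FPKM, 1461 with only the 2 groups, 1281 with quantile normalization, 1254 with no trend and 1501 with voom on rebuilt reads (1219 shared). Leaving out 1 library at a time gave 793 to 1102 in all, 411 to 605 higher and 375 to 497 lower. The Met to DIF count of 489 was 300 with only the 2 groups compared and 234 to 400 with 1 library left out, and the Met to PIF count of 2234 was 1624 to 2298. Libraries of the same number did not deviate together between Met and TB (correlations −0.04 to 0.072, against −0.124 to 0.083 for other numbers). No pairing by number was seen, but 3 libraries per group cannot show that there was none. A fit with a replicate block called 1317 genes (1159 shared). No named call changed sign. Of 373 named calls, 5 were lost with a pseudocount of 0.1, 73 with no filter, 24 with quantile normalization, 5 with voom and 58 to 97 with 1 library left out. With 3 libraries per group, small changes and genes under a few FPKM are limited by depth and by the spread.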

Other observations

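Transporters and channels of the plasma membrane, of which 32 were tested, had 7 higher and 3 lower in Met. The rises numbered 4 without TB replicate 2 or Met replicate 2, and the falls 0 without TB replicate 2 or Met replicate 3. Slc6a6, the taurine transporter, averaged 64.9 ± 1.39 FPKM in Met, against 37.1 ± 4.06 in TB (0.79 ± 0.09, adjusted p = 0.0002), and Slc38a1, a neutral amino acid carrier, 1.24 ± 0.176 FPKM in Met, against 0.532 ± 0.0903 in TB (0.54 ± 0.09, adjusted p = 0.0025). The phosphate carrier gene Slc20a1 and the sodium pump subunit gene Atp1b1 rose by 0.37 ± 0.05 and 0.75 ± 0.15. Of 24 gp130 and STAT3 genes 4 rose and 1 fell, the fall being lost with any 1 library left out. The receptor genes Il4ra and Il13ra1, partners in the receptor of interleukins 4 and 13, averaged 7.09 ± 0.879 FPKM in Met, against 2.35 ± 0.566 in TB (1.28 ± 0.17, adjusted p = 0.00049) and 4.61 ± 0.414 FPKM in Met, against 2.65 ± 0.18 in TB (0.62 ± 0.12, adjusted p = 0.0053).

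Among phosphatases that limit MAP kinases, Dusp1 averaged 41.3 ± 2.76 FPKM in Met, against 27.8 ± 1.2 in TB (0.56 ± 0.08, adjusted p = 0.00082) and Dusp4 115 ± 6.44 FPKM in Met, against 85 ± 9.05 in TB (0.44 ± 0.08, adjusted p = 0.0055), and of 28 ERK output and feedback genes 4 rose and 1 fell. Of 23 galectins, S100 proteins and annexins 6 fell and 2 rose, and the rises numbered 0 without TB replicate 1, TB replicate 3, Met replicate 2 or Met replicate 3, 1 without Met replicate 1 and 3 without TB replicate 2. Beside Lgals3, S100a1 averaged 102 ± 7.51 FPKM in Met, against 140.4 ± 10.8 in TB (−0.45 ± 0.08, adjusted p = 0.0036), S100a16 209.7 ± 10.4 FPKM in Met, against 272 ± 17.2 in TB (−0.37 ± 0.06, adjusted p = 0.0026) and Anxa5, the phosphatidylserine-binding annexin, 836 ± 28.9 FPKM in Met, against 1089 ± 38.2 in TB (−0.38 ± 0.06, adjusted p = 0.0015).

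Gapdh, often used as a reference gene, was listed at 61.5, 59.6 and 32.5 FPKM in Met, against 1.03, 1.5 and 22.9 FPKM in TB (3.34 ± 1.16, adjusted p = 0.097). TB replicate 3 lay far above the other TB libraries and Met replicate 3 below the other Met libraries. The gene has many near-identical copies in the mouse genome, so its counting is uncertain.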
